A study of Homo sapiens with 12 samples.

Results

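The 10 genes described here encode chains of the human MHC class II molecules (HLA-DRA, HLA-DRB1, HLA-DRB5, HLA-DQA1, HLA-DQB1 and HLA-DPA1), the peptide editor HLA-DM (HLA-DMA and HLA-DMB), the invariant chain CD74 and the class II transactivator CIITA. They were taken by gene symbol from the 27968 genes in the deposited tables, and all 10 were among the 15304 genes that passed the filter on low counts. They were chosen by their measured difference between 3D and 2D and between the lines in these same libraries, so their own values are given as a description, with no p-value. RNA sequencing covered 4 groups of 3 libraries: MDA-MB-231 in 3D, MDA-MB-231 in 2D, A549 in 3D and A549 in 2D. MDA-MB-231 is an established breast cancer line and A549 an established lung cancer line, both without any labelled genetic change and both untreated. Cells in 3D were grown in Matrigel, a basement membrane extract, and harvested on day 4. Cells in 2D were grown on a flat surface and harvested at about 80% confluence, and both cultures used DMEM with 10% FBS. The series was made to find genes that extracellular matrix regulates in cancer cells, and each line stands for 1 tumour. Culture format, time in culture and cell density differ together between 3D and 2D and cannot be told apart. Mean fragment length, worked out from the deposited transcript lengths, differed along with them. In MDA-MB-231 it was 184 ± 3.4 bases in 3D and 212 ± 4.5 bases in 2D (SD). In A549 it was 137 ± 3.7 bases in 3D and 180 ± 5.8 bases in 2D.

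MHC class II molecules are pairs of an alpha and a beta chain that show peptides from internalised proteins to CD4 T cells. B cells, dendritic cells and macrophages make them constantly, and many other cells, epithelial tumour cells included, make them after interferon-gamma. The invariant chain CD74 holds newly made class II molecules and blocks their groove until they reach endosomes, where HLA-DM removes the last piece of CD74 and selects tightly bound peptides. CIITA does not bind DNA itself. It acts as a co-activator on the RFX, CREB and NF-Y proteins that sit on the X and Y boxes shared by the promoters of class II genes, CD74 and HLA-DM.

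Each library held between 5609327 and 28171901 expected counts, with the shallowest and the deepest both in A549 3D. The biological coefficient of variation was 0.0555 for MDA-MB-231 3D, 0.0539 for MDA-MB-231 2D, 0.179 in A549 3D and 0.0368 in A549 2D, so the A549 3D libraries varied most. A count of 0 in a library allows a level of up to 0.118 to 0.586 CPM (counts scaled to library size), depending on the library (3 counts, counting error only). The line labels were checked against marker genes. VIM, a mesenchymal filament gene, was higher in MDA-MB-231 than in A549 by 2.41 ± 0.086 on the log2 scale in 3D and by 1.40 ± 0.083 in 2D. SPARC went the other way and was lower in MDA-MB-231, with log2 fold changes of -5.28 ± 0.24 in 3D and -5.24 ± 0.22 in 2D. The summed level of 8 A549 markers, nearly all of it from AKR1B10, AKR1C1, KRT8 and KRT18, was 1093 to 1183 TPM in MDA-MB-231 3D and 1028 to 1045 TPM in its 2D culture, against 19637 to 22214 TPM in A549 3D and 7902 to 8275 TPM in A549 2D. Over all genes, 43.9% were lower in MDA-MB-231 than in A549 in 3D and 42.8% in 2D. Of the 7 A549 markers tested, 6 were lower in MDA-MB-231 in 3D, and in 2D 5 were lower and 2 were higher. Those 2 were EPCAM, with 33.7 TPM in MDA-MB-231 2D and 3.36 TPM in A549 2D, and NKX2-1, a lung marker, with 0.94 TPM in MDA-MB-231 2D and 0 TPM in A549 2D.

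The promoters of members whose RNA moved are shown first, because the X and Y boxes are the known site of CIITA action. RefSeq promoter sequences (GRCh38.p14, 250 bases before to 50 bases after the gene start) were matched for 8 of the 10 members, all but HLA-DRA and CIITA. Both strands were searched for a pattern of the X and X2 boxes, which reads AG, any 2 bases, AC, any base, then GATG, and for ATTGG, the core of the Y box. The letters of the X pattern were set after reading these promoters, so its presence in them is a description. It was found in 0.817% of 35116 promoters, ATTGG in 34.6%, and both within 60 bases in 0.165%. The pattern stands in 5 of the 8 matched members. The 100 bases around it are printed 5′ to 3′ on the strand of the gene, with each match to either pattern, on either strand, in capitals:
HLA-DRB1, chr6:32589848-32589947, minus strand: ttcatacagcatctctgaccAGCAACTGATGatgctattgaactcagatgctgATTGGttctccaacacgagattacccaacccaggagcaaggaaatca
HLA-DRB5, chr6:32530331-32530430, minus strand: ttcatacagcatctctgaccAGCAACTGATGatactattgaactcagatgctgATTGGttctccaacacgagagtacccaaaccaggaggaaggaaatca
HLA-DQB1, chr6:32666699-32666798, minus strand: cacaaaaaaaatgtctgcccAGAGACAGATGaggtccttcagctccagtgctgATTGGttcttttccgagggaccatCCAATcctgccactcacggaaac
HLA-DMA, chr6:32953131-32953230, minus strand: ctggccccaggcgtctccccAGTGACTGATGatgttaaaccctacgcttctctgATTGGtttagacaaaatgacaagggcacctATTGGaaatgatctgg
HLA-DMB, chr6:32941037-32941136, minus strand: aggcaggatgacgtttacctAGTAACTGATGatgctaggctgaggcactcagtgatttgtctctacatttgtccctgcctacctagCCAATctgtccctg

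The X pattern began 79 bases before the gene start in HLA-DRB1, 123 in HLA-DRB5, 121 in HLA-DQB1, 113 in HLA-DMA and 88 in HLA-DMB. In HLA-DRB1, HLA-DRB5, HLA-DQB1 and HLA-DMA an ATTGG core followed within 60 bases, and in HLA-DMB the only core lay farther from the X pattern and on the other strand. HLA-DQA1, HLA-DPA1 and CD74 held no match to the X pattern in this window, which says only that these letters are not there.

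In MDA-MB-231 every member was higher in 3D than in 2D. CIITA, the co-activator, had 17.0, 19.4 and 19.6 TPM in the 3D libraries, against 4.38, 4.92 and 4.32 TPM in the 2D libraries. The groups of 3 libraries did not overlap, and the log2 fold change was 2.52 ± 0.11 (SE from the edgeR fit over 12 libraries). Its reads came to 2213 counts in 3D and 542 counts in 2D. The CIITA transcript length, weighted by isoform in the deposited tables, was 4352, 4046 and 4246 bases in 3D and 4062, 4022 and 4025 bases in 2D. These lengths overlap between the cultures. In GENCODE transcripts (GRCh38), 11.5% of the 50-base words of CIITA also occur in another gene. The counts come from an hg19 run with an annotation that is not given, so this share does not measure ambiguity of the reads counted here.

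The HLA-DR pair carried most of the class II RNA. HLA-DRA, which encodes the HLA-DR alpha chain and varies little between people, had 949, 965 and 915 TPM in MDA-MB-231 3D, against 116, 117 and 116 TPM in MDA-MB-231 2D. All 3D libraries lay far above all 2D libraries, with a log2 fold change of 3.46 ± 0.078. HLA-DRB1, its main beta chain, had 1019, 998 and 996 TPM in 3D and 58.9, 58.2 and 63.1 TPM in 2D. The groups were again well apart, with a log2 fold change of 4.50 ± 0.089. HLA-DRB5, a further beta chain gene present on some haplotypes, had 16.4, 14.4 and 17.2 TPM in 3D and 0.29, 0.62 and 1.11 TPM in 2D. Its 2D level rested on 20 counts over 3 libraries, and its log2 fold change was 4.99 ± 0.30. In the same GENCODE transcripts, not those behind the counts, HLA-DRB1 shared 9.92% of its 50-base words with other genes and 8.64% with HLA-DRB5. The split of reads between HLA-DRB1 and HLA-DRB5 is uncertain. With HLA-DRB1, HLA-DRB3, HLA-DRB4 and HLA-DRB5 summed to 1 feature, the log2 fold change was 4.49.

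Among the HLA-DQ and HLA-DP chains the 2D levels were lower than those of HLA-DRA and HLA-DRB1. HLA-DQB1, the beta chain of HLA-DQ, had 48.7, 48.7 and 44.9 TPM in MDA-MB-231 3D, against 1.68, 1.32 and 1.42 TPM in 2D, and a log2 fold change of 5.42 ± 0.13. HLA-DQA1, its alpha chain, had 1.33, 1.61 and 1.26 TPM in 3D and 0.07, 0 and 0 TPM in 2D. The 2D value was a single count, so the fold is uncertain: the ratio was 79.4 with an exact 95% counting interval of 13.7 to 3191. HLA-DPA1, the alpha chain of HLA-DP, had 274, 286 and 291 TPM in 3D and 31.2, 33.2 and 32.1 TPM in 2D. Its cultures did not overlap, with a log2 fold change of 3.57 ± 0.10.

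CD74 had the highest level of the members in both cultures of MDA-MB-231. It reached 1515, 1644 and 1639 TPM in 3D, against 253, 306 and 236 TPM in 2D, and its log2 fold change was 3.03 ± 0.10. HLA-DMA had 148, 148 and 139 TPM in 3D and 38.9, 43.3 and 38.4 TPM in 2D, and HLA-DMB had 56.3, 65.1 and 65.2 TPM in 3D and 12.4, 11.5 and 11.3 TPM in 2D. Neither chain's groups overlapped, and the log2 fold changes were 2.30 ± 0.083 for HLA-DMA and 2.85 ± 0.13 for HLA-DMB. The editor chains and CIITA had smaller differences than any of the HLA-DR, HLA-DQ and HLA-DP chains, and CD74 stood between. In MDA-MB-231 10 of 10 members passed an adjusted p of 0.05 upward with edgeR, where 33.4% of all 15304 genes did and 67.6% were called in either direction. Since the members were chosen for this contrast, that count is not evidence about them. Fold changes here come from scaled counts, and on the log2(TPM + 1) scale, where the median gene lay at -0.25, they were smaller, at 1.83 for CIITA, 3.37 for HLA-DRB5, 4.29 for HLA-DQB1 and 3.01 for HLA-DRA.

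**Figure D1:**
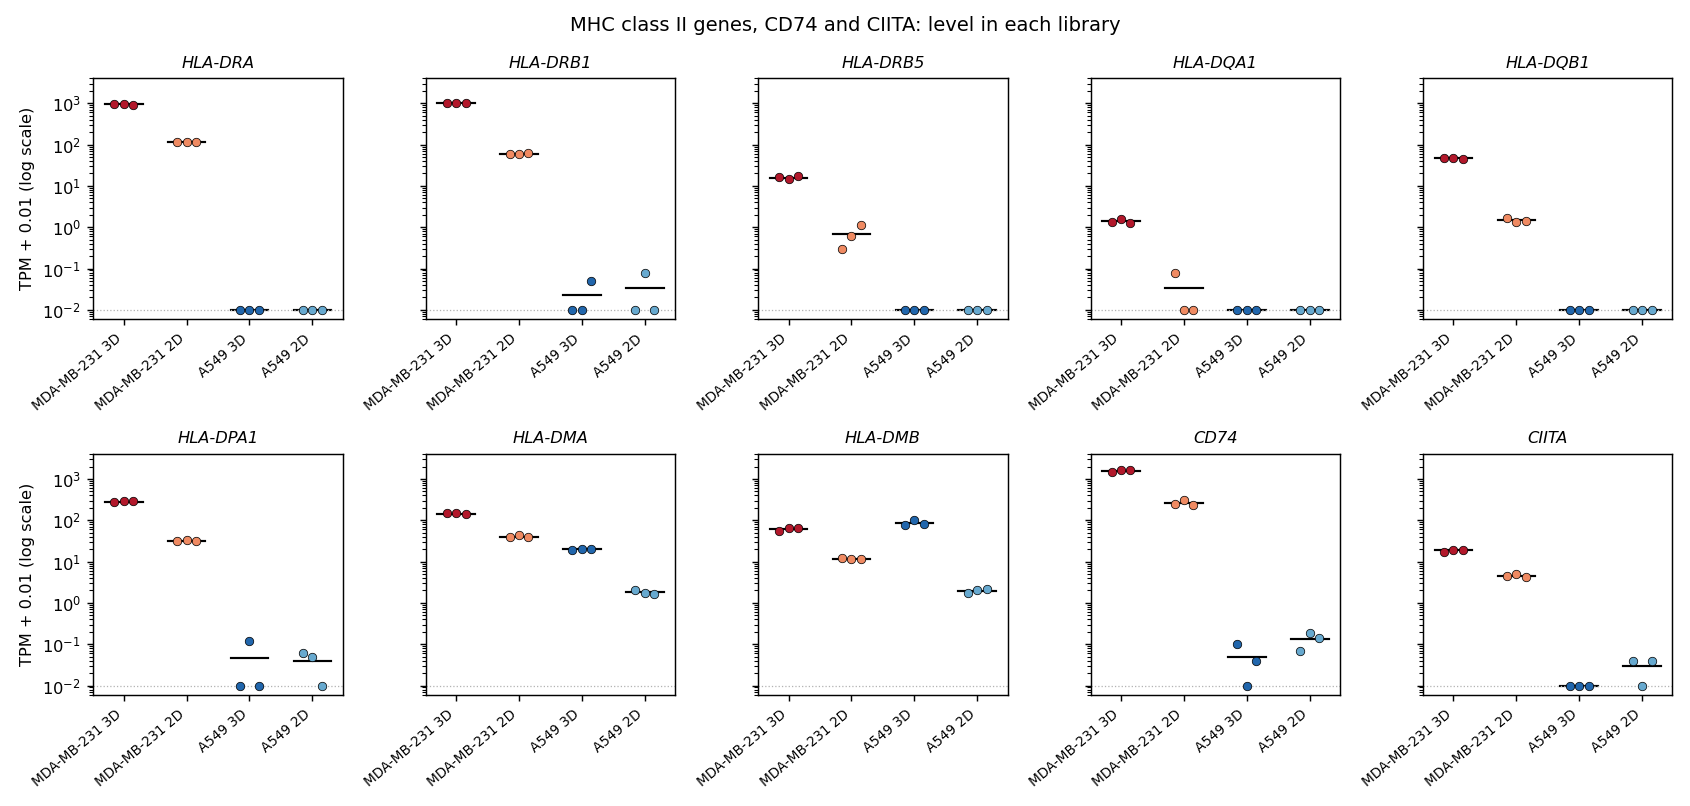
TPM + 0.01 on a log axis for the 10 members, with a point for each library and a line for the mean of 3 in MDA-MB-231 3D, MDA-MB-231 2D, A549 3D and A549 2D. Points on the dotted line are listed at 0. Every MDA-MB-231 3D library lies above every 2D library. In A549 HLA-DMA and HLA-DMB alone lie above 0.18 TPM, the highest value of the other members there, which is that of CD74 in 2D.

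Ranked by TPM in MDA-MB-231 3D, the order was CD74, HLA-DRB1, HLA-DRA, HLA-DPA1, HLA-DMA, HLA-DMB, HLA-DQB1, CIITA, HLA-DRB5 and HLA-DQA1. CIITA and HLA-DRB5 overlapped between libraries in that order, and all other neighbours were apart. In 2D HLA-DRA stood above HLA-DRB1 in each library. The HLA-DRB1 to HLA-DRA ratio of TPM was 1.07 ± 0.028 in 3D and 0.517 ± 0.026 in 2D (SD, n = 3 each), and with HLA-DRB3, HLA-DRB4 and HLA-DRB5 added to the beta chains it was 1.16 ± 0.029 in 3D and 0.564 ± 0.028 in 2D. The CD74 to HLA-DRA ratio was 1.70 ± 0.097 in 3D and 2.28 ± 0.30 in 2D. The HLA-DRA to CIITA ratio was 50.8 ± 4.5 in 3D and 25.7 ± 1.6 in 2D, and none of these ratios overlapped between the cultures. Together the members made up 0.412% ± 0.0074 of all TPM in MDA-MB-231 grown in 3D and 0.0532% ± 0.0039 in 2D. In bulk RNA, fewer cells of a type and less RNA per cell cannot be told apart, so a higher level may be spread over all cells or over some.

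In A549 most members were at or near 0 in both cultures. HLA-DRA, HLA-DRB5, HLA-DQA1 and HLA-DQB1 had 0 counts in all 3 libraries of A549 3D and all 3 of A549 2D. HLA-DRB1 had 1 count in 3D and 1 count in 2D, HLA-DPA1 had 1 count in 3D and 2 counts in 2D, and CIITA had 0 counts in 3D and 2 counts in 2D. CD74 had 2 counts in 3D and 6 counts in 2D, a ratio of 0.474 with a counting interval of 0.0468 to 2.65. No difference between the A549 cultures was detectable for these 8 genes at this depth.

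The HLA-DM chains were the exception in A549. HLA-DMB had 75.9, 101 and 82.0 TPM in A549 3D, against 1.72, 2.10 and 2.14 TPM in A549 2D. The cultures were far apart, with a log2 fold change of 6.01 ± 0.16. HLA-DMA had 19.4, 20.5 and 20.6 TPM in 3D, against 2.07, 1.71 and 1.66 TPM in 2D, and a log2 fold change of 4.05 ± 0.13. Leaving out each library in turn gave 5.85 to 6.09 for HLA-DMB and 3.96 to 4.16 for HLA-DMA. On the log2(TPM + 1) scale, with the median gene at -0.38, the values were 4.86 for HLA-DMB and 2.91 for HLA-DMA. The members called higher in A549 were these 2 of 10, where 34.1% of all genes were called higher, while 31.5% were called lower and 65.6% in either direction. In A549 3D the HLA-DMB to HLA-DMA ratio of TPM was 4.27 ± 0.56, against 1.12 ± 0.25 in A549 2D. In MDA-MB-231 the same ratio was 0.429 ± 0.045 in 3D and 0.292 ± 0.026 in 2D, so HLA-DMA was the more abundant chain there.

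Set against each other, the 3D change of HLA-DM was larger in A549 than in MDA-MB-231. The MDA-MB-231 change minus the A549 change was -1.75 ± 0.16 on the log2 scale for HLA-DMA and -3.16 ± 0.22 for HLA-DMB. On the log2(TPM + 1) scale these differences were -1.08 for HLA-DMA and -2.55 for HLA-DMB, the smallest values among the alternatives. For the difference between lines 3 members were called higher (HLA-DPA1, CD74 and CIITA) and 2 lower (HLA-DMA and HLA-DMB), where 26.7% of all genes were called higher and 29.3% lower (56.1% in all). The higher calls rest on 8 A549 counts or fewer per gene. With A549 2D replicate 1 or A549 3D replicate 3 left out, 3 members in all were called in place of 5. The other 5 members had at most 1 count in either culture of A549, so a difference between lines cannot be read from them.

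**Figure D2:**
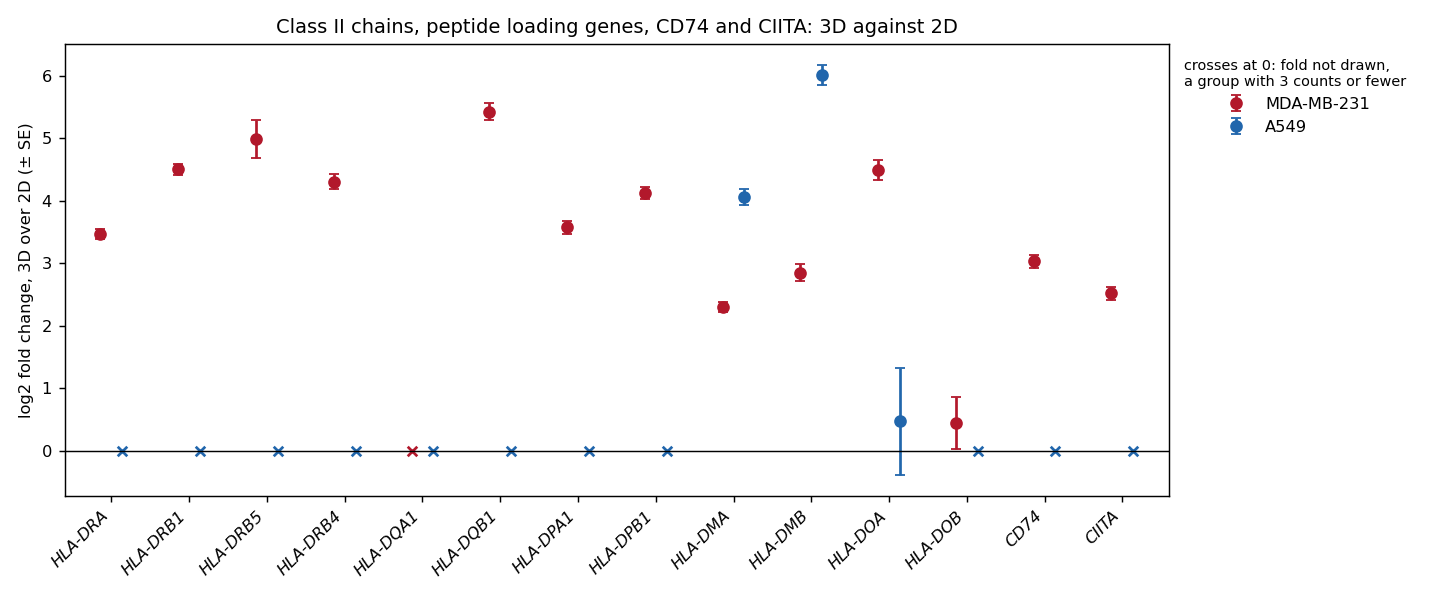
Log2 fold change of 3D over 2D with its SE (edgeR, 12 libraries) for the class II genes, CD74 and CIITA in MDA-MB-231 and in A549, where crosses at 0 mark a gene with 3 counts or fewer in a culture of that line. MDA-MB-231 points lie between 2.30 and 5.42 apart from HLA-DOB at 0.45, and A549 points are drawn for HLA-DMB at 6.01, HLA-DMA at 4.05 and HLA-DOA at 0.47, which rests on 5 counts in each culture.

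Between lines, MDA-MB-231 had the higher level of nearly every member. In 3D, HLA-DRA was at least 7975-fold higher in MDA-MB-231 than in A549, with 3 counts over the A549 group as the floor, and in 2D it was at least 1027-fold higher. CIITA was at least 584-fold higher in 3D, and in 2D its ratio of 215 had a counting interval of 59.3 to 1781. HLA-DQB1 was at least 530-fold higher in 3D, and the bound for 2D was at least 17.5-fold. HLA-DMA was higher in MDA-MB-231 by 1.88 ± 0.087 on the log2 scale in 3D and by 3.63 ± 0.13 in 2D. HLA-DMB differed in direction by culture: MDA-MB-231 was lower than A549 by a log2 fold change of -1.42 ± 0.12 in 3D and higher by 1.74 ± 0.19 in 2D. On the log2(TPM + 1) scale the HLA-DMB values were -0.46 in 3D and 2.09 in 2D, beside medians over all genes of 0.64 and 0.56. In 3D 9 members were called higher and 1 lower in MDA-MB-231, against 39.2% and 43.9% of all genes (83% in either direction). In 2D 9 were called higher, while 38.8% of all genes were called higher and 42.8% lower (81.6% in all). HLA-DQA1, with 1 count in MDA-MB-231 2D and 0 in A549 2D, was not called. That gene passed the filter through the MDA-MB-231 3D libraries alone. Since the members were also chosen for their difference between the lines, these counts of calls are not evidence about them. The same holds for the members called in A549 and for the difference of the 3D change.

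HLA-DPB1, HLA-DOA and HLA-DRB4, class II genes outside the members, were also higher in MDA-MB-231 3D. Of the 10 other class II genes listed, 9 were in the tables and 5 passed the filter. HLA-DPB1, the partner of HLA-DPA1, had 46.9, 45.4 and 46.6 TPM in 3D and 3.67, 3.33 and 3.63 TPM in 2D (log2 fold change 4.12 ± 0.094, edgeR adjusted p = 4.33e-11). HLA-DOA, a chain of the HLA-DM inhibitor HLA-DO, had 16.1, 18.3 and 18.6 TPM in 3D and 0.99, 0.94 and 1.21 TPM in 2D (4.49 ± 0.16, adjusted p = 1.58e-11). Its partner HLA-DOB had 0.89, 1.25 and 0.83 TPM in 3D and 0.72, 0.86 and 1.42 TPM in 2D, which overlap (0.45 ± 0.41, adjusted p = 0.353). HLA-DRB4, a beta chain gene of some HLA-DR haplotypes, rose by 4.30 ± 0.12 (adjusted p = 1.51e-10). HLA-DQA2, with 140 counts in 3D and 0 in 2D, was at least 66.2-fold higher, and it passed the filter through the MDA-MB-231 3D libraries alone. HLA-DRB3, with 24 counts in 3D and 0 in 2D, and HLA-DQB2, with 20 counts in 3D and 0 in 2D, did not pass it. In A549 HLA-DPB1, HLA-DRB4 and HLA-DQA2 had 0 counts in every library, and HLA-DOA and HLA-DOB were at or below 0.18 TPM. The A549 change of HLA-DOA was 0.47 ± 0.86 and lay between -0.24 and 1.15 when each library was left out.

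The known regulators of class II genes moved in both directions. Of 28 listed regulators in MDA-MB-231, 14 rose, 11 fell and 3 were not called in 3D, with a median log2 fold change of 0.16, while 33.4% of all genes rose and 34.2% fell. On log2(TPM + 1), limma called 5 higher and 14 lower, with a median of -0.25, that of all genes. By the smallest p, JAK2, a kinase of the interferon-gamma receptor, fell in 3D (log2 fold change -1.60 ± 0.12, edgeR adjusted p = 1.52e-08). It had 1.44, 1.28 and 1.43 TPM in 3D, against 5.52, 5.44 and 6.17 TPM in 2D. CREB1, which binds the X2 box, fell by 1.17 ± 0.10 on the log2 scale (adjusted p = 8.25e-08), NFYB, a subunit of the Y box factor NF-Y, by 1.38 ± 0.13 (adjusted p = 2.23e-07), and KAT2B, an acetyltransferase that acts with CIITA, by 1.19 ± 0.11 (adjusted p = 2.01e-07). The RFX proteins bind the X box and were picked out after their values were seen. RFXANK rose by 1.05 ± 0.11 (adjusted p = 3.98e-07) and RFXAP fell by 0.85 ± 0.23 (adjusted p = 0.00357). RFX5 was called higher at 0.26 ± 0.098 (adjusted p = 0.0289), but the sign turned on TPM, with 41.4 to 44.3 TPM in 3D and 46.0 to 49.2 TPM in 2D.

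In A549, 9 of the 28 regulators rose, 8 fell and 11 were not called, while 34.1% of all genes rose and 31.5% fell. The median of the regulators was -0.05 beside 0.03 over all genes. On log2(TPM + 1), 3 were called higher and 18 lower. JAK1 fell by 1.10 ± 0.072 on the log2 scale (edgeR adjusted p = 3.06e-09) and EZH2, a histone methyltransferase, by 1.39 ± 0.099 (adjusted p = 8.06e-09). IFNGR1, the ligand-binding chain of the interferon-gamma receptor, rose by 1.28 ± 0.098 (adjusted p = 1.85e-08) and EP300, a histone acetyltransferase, by 1.69 ± 0.18 (adjusted p = 6.92e-07). IRF1, which acts on an interferon-gamma-induced CIITA promoter, rose by 0.69 ± 0.078 in MDA-MB-231 (adjusted p = 1.4e-06) and by 0.69 ± 0.090 in A549 (adjusted p = 5.77e-06). SMARCA4, the remodelling ATPase BRG1, was higher in MDA-MB-231 than in A549 by 6.17 ± 0.12 in 3D (adjusted p = 8.38e-16) and by 4.45 ± 0.11 in 2D (adjusted p = 4.98e-15).

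**Figure D3:**
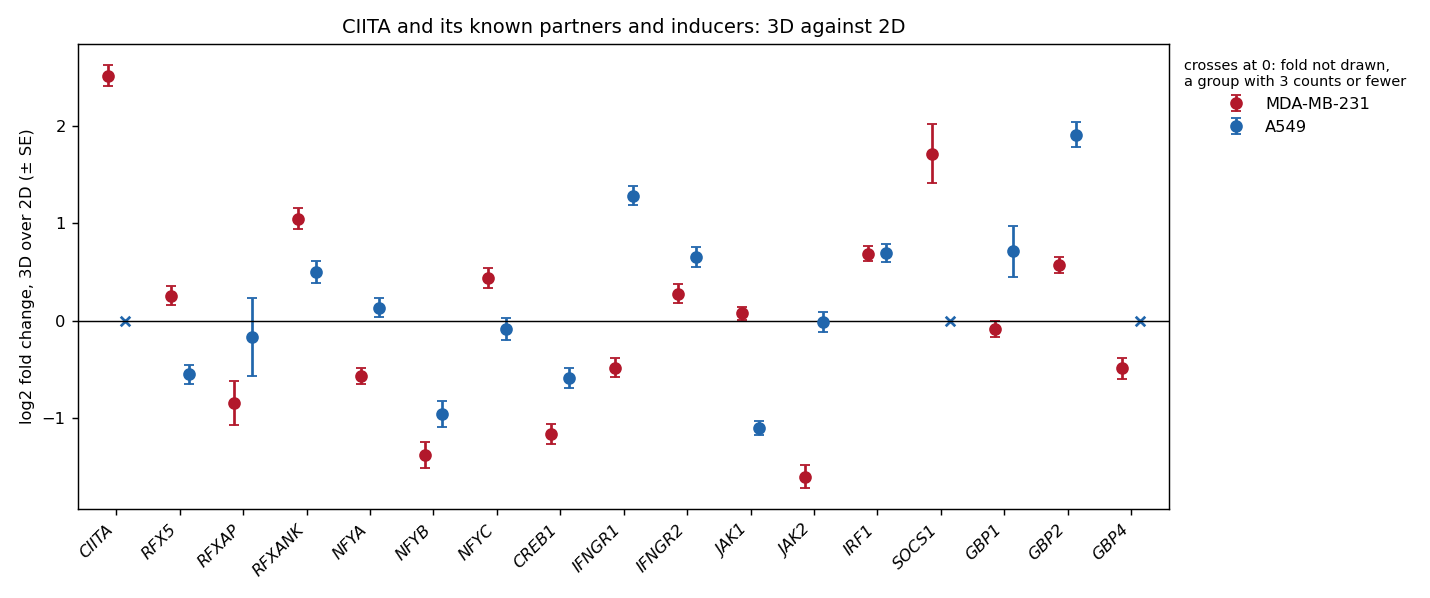
Log2 fold change of 3D over 2D with its SE (edgeR, 12 libraries) for CIITA and 16 genes of its known partners, inducers and interferon-gamma targets in MDA-MB-231 and A549, with crosses at 0 where a culture had 3 counts or fewer. CIITA at 2.52 in MDA-MB-231 lies above all its listed partners, JAK2 at -1.60 is the lowest point, and all points are on count-based scaling. Among the points called, RFX5 and IFNGR2 in MDA-MB-231 and RFXANK and GBP1 in A549 have the opposite sign on TPM.

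The class II processing list held endosomal proteases and membrane proteins, the ligases MARCH1 and MARCH8, which remove class II molecules from the surface, and CD44, CXCR4 and MIF, partners of CD74 in signalling. In MDA-MB-231 14 of its 17 tested genes rose and 3 fell, with a median of 0.87, where 33.4% of all genes rose and 34.2% fell. On log2(TPM + 1), 10 were called higher and 3 lower. CTSF, a protease that trims CD74, rose by 1.61 ± 0.087 (edgeR adjusted p = 8.51e-10). CTSS, a protease with the same role that was picked out after its value was seen, rose by 1.60 ± 0.11 (adjusted p = 1.2e-08). The endosomal protease CTSD rose by 2.06 ± 0.14 (adjusted p = 7.19e-09) and CD63, a tetraspanin of class II compartments, by 1.12 ± 0.076 (adjusted p = 6.42e-09). The genes that fell were CXCR4 at -2.56 ± 0.096, MARCH1 at -3.58 ± 0.38, and SPPL2A, which cleaves CD74 fragments, at -0.70 ± 0.13. In A549, where CD74 was close to 0, 10 of the same 17 rose and 7 were not called, while 34.1% of all genes rose. On log2(TPM + 1) 9 were called higher and 6 lower in A549. CD82, a tetraspanin, rose by 3.02 ± 0.13 (adjusted p = 2.28e-11) and LGMN, an endosomal protease, by 1.59 ± 0.10 (adjusted p = 2.27e-09).

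The class I list held genes whose promoters carry a like module, read by NLRC5. All 9 listed were called higher in MDA-MB-231 from counts, where 33.4% of all genes were. The median of the 9 was 1.49, and 8 were called higher on log2(TPM + 1). In A549 6 of 9 were called higher, where 34.1% of all genes were, and 3 were not called, with a median of 0.76. On log2(TPM + 1) 3 of them were called higher and 2 lower in A549. B2M, the light chain of class I molecules, turned its sign on TPM in both lines, with 1871 to 2237 TPM in MDA-MB-231 3D and 2148 to 2227 TPM in MDA-MB-231 2D. HLA-B had 1509, 1402 and 1453 TPM in MDA-MB-231 3D, against 247, 262 and 251 TPM in 2D (2.96 ± 0.17, edgeR adjusted p = 1.57e-09). HLA-C rose by 2.21 ± 0.10 in MDA-MB-231 (adjusted p = 1.7e-10), and was 2.83-fold higher in 3D than in 2D in A549 (adjusted p = 1.04e-08). The value for HLA-F in MDA-MB-231 was 3.31 ± 0.20, close to that of HLA-DRA, and differences between class I and class II genes were not tested.

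Interferon-gamma itself was not seen. IFNG had 0 counts in all 12 libraries. The list of genes tied to its induction held 24 symbols, IFNG itself included, and 21 were tested. In MDA-MB-231 14 rose, 2 fell and 5 were not called, where 33.4% of all genes rose and 34.2% fell. The median of the list was 0.84, and on log2(TPM + 1) 12 were called higher and 5 lower. CXCL11, a chemokine, had 22.8, 23.0 and 20.4 TPM in 3D and 3.25, 4.08 and 4.11 TPM in 2D (2.96 ± 0.14, edgeR adjusted p = 7.6e-09). GBP4, a guanylate-binding protein, was among those that fell, at -0.49 ± 0.11 (adjusted p = 0.00108). In A549 11 rose, 1 fell and 9 were not called, where 34.1% of all genes rose and 31.5% fell. On log2(TPM + 1) 5 were called higher and 5 lower in A549. From counts, GBP2 was at 1.91 ± 0.13 in A549 (edgeR adjusted p = 4.41e-09) and TAP2, the gene that fell, at -0.47 ± 0.14 (adjusted p = 0.00767). TAP1, PSMB9 and NLRC5 stand in both this list and the class I list, and this list also shares genes with the regulators, IRF1 and SOCS1 among them.

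Markers of blood cells, the usual source of class II RNA, were examined beside these results. Of 18 markers, 7 passed the filter. In MDA-MB-231 5 rose and 2 were not called, where 33.4% of all genes rose. The summed level of the 18 markers was 375 to 396 TPM in MDA-MB-231 3D and 236 to 265 TPM in its 2D culture. In A549 it was 17.4 to 30.9 TPM in 3D and 6.18 to 7.07 TPM in 2D. CD68, a lysosomal protein, gave 226, 251 and 243 TPM of the sum in MDA-MB-231 3D and 134, 144 and 125 TPM in MDA-MB-231 2D. LAPTM5 gave most of the remainder there. CD14, a monocyte receptor for lipopolysaccharide, averaged 19.8 ± 1.4 TPM in MDA-MB-231 3D and 2.90 ± 0.27 TPM in 2D (log2 fold change 3.22 ± 0.14, edgeR adjusted p = 1.26e-10). LYZ, which encodes lysozyme, averaged 2.22 ± 0.65 TPM in 3D and 0.92 ± 0.27 TPM in 2D (1.69 ± 0.32, adjusted p = 0.000358). Their part in the class II results was not tested. The markers MS4A1, CD3E, CLEC9A and TYROBP were at 0 in all 12 libraries. Others were not: of the 18 markers, 6 were at 0 in MDA-MB-231 3D and 9 in its 2D culture. CD79A, ITGAX and SPI1 were at 0 in MDA-MB-231 2D but not in 3D. PTPRC, the pan-leukocyte gene CD45, had 0.03, 0 and 0.04 TPM in MDA-MB-231 3D and 0.21, 0.23 and 0.38 TPM in 2D. In A549 4 of the 7 rose, where 34.1% of all genes rose. Besides CD14 these were CD68 (2.49 ± 0.21), ITGAX (2.30 ± 0.42) and LYZ, which was at 0 in A549 2D. CD14 was at 12.4 ± 2.4 TPM in A549 3D and 1.88 ± 0.095 TPM in A549 2D (3.31 ± 0.15, edgeR adjusted p = 3.59e-11).

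HLA-DMA and HLA-DMB lie next to each other on chromosome 6, so their neighbours were read in RefSeq order (GRCh38.p14), a comparison chosen after the values of HLA-DMA and HLA-DMB in A549 were seen. The neighbour on the HLA-DMB side, the non-coding gene LOC100294145, was higher in A549 3D at 21.2 ± 5.0 TPM than in A549 2D at 5.64 ± 0.50 TPM (log2 fold change 2.44 ± 0.16, edgeR adjusted p = 2.78e-09). In MDA-MB-231 it was lower in 3D, at 16.4 ± 0.82 TPM against 38.5 ± 1.2 TPM in 2D (-0.82 ± 0.15, adjusted p = 0.000129). The next gene on that side, PSMB9, was not called in A549 (0.27 ± 0.13, adjusted p = 0.0746), and its sign turned on TPM. BRD2, the neighbour on the HLA-DMA side, had 19.4 ± 5.4 TPM in A549 3D and 38.1 ± 0.48 TPM in A549 2D (-0.29 ± 0.11, adjusted p = 0.0304). HLA-DOA, beyond BRD2, had 0.03 ± 0.026 TPM in A549 3D and 0.037 ± 0.035 TPM in A549 2D.

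**Figure D4:**
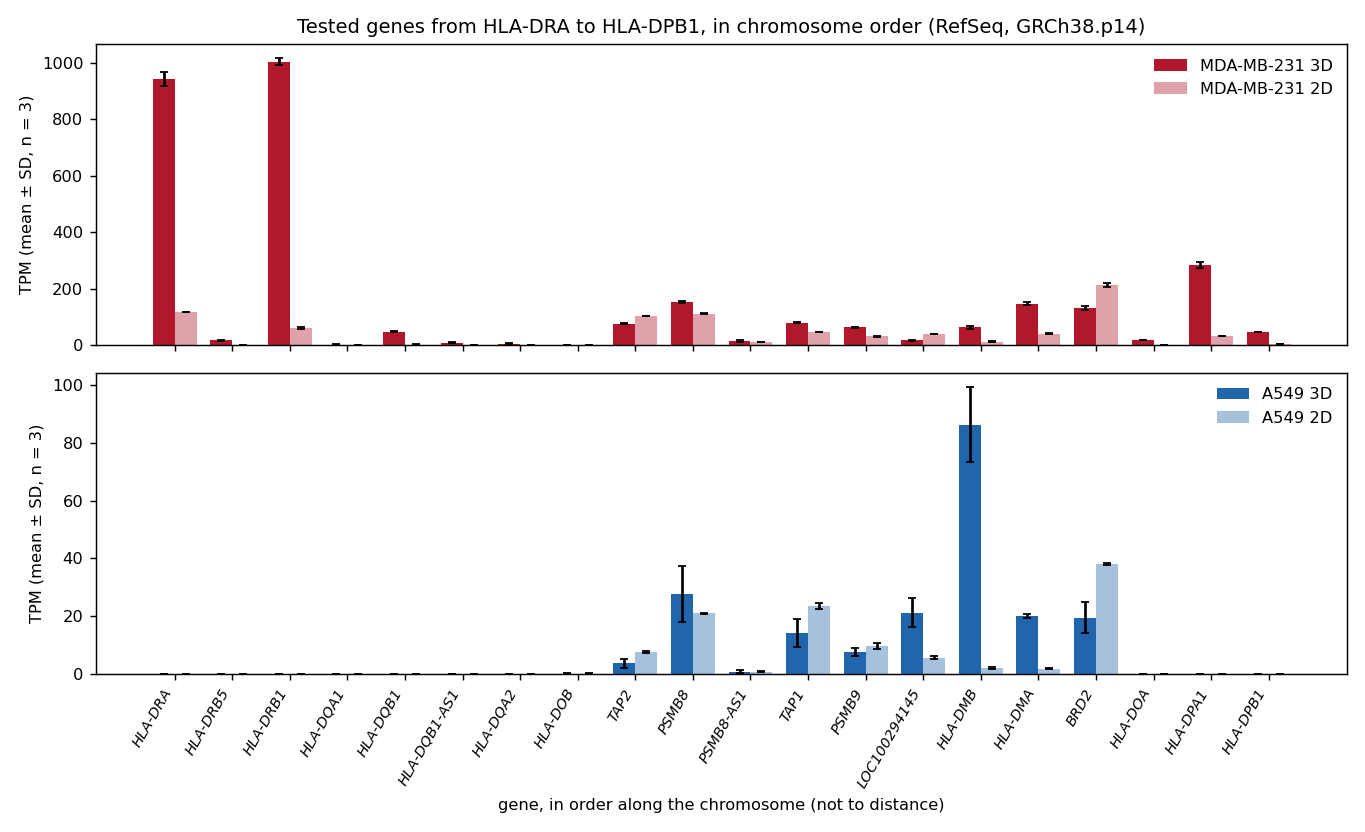
Mean TPM with SD (n = 3) of the tested genes from HLA-DRA to HLA-DPB1, in chromosome order but not to distance, for MDA-MB-231 above and A549 below, each with 3D left of 2D and with its own axis. In MDA-MB-231 the tall 3D bars are those of HLA-DRA at 943 TPM and HLA-DRB1 at 1004 TPM, and in A549 the 3D bar of HLA-DMB at 86.2 TPM stands beside those of LOC100294145 at 21.2 TPM and HLA-DMA at 20.2 TPM.

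Genes whose pattern was most like that of HLA-DRA were sought over the 12 libraries, which share 2 lines and 2 cultures, so the points are not independent and the likeness is a description. By Pearson's r of log2(CPM + 0.5), the closest were CSF3 (0.9996), SOD3 (0.9995), SAA2 (0.9985), SAA1 (0.9984) and MXRA7 (0.9975). Among the closest to CIITA were CSF3 (0.9994), SOD3 (0.9987), MXRA7 (0.9983) and CALB2 (0.9971). CSF3, which encodes the cytokine G-CSF, averaged 367 TPM in the MDA-MB-231 3D libraries and 50.2 TPM in the 2D libraries and was listed at 0 in A549. SAA1, which encodes an acute phase protein, averaged 1914 TPM in MDA-MB-231 3D and 304 TPM in MDA-MB-231 2D. In A549 SAA1 averaged 0.42 TPM in 3D and 0.06 TPM in 2D. SOD3 differed less between the cultures, at 13.96 TPM in MDA-MB-231 3D and 6.09 TPM in MDA-MB-231 2D. MXRA7 averaged 199.8 TPM in MDA-MB-231 3D and 177.1 TPM in 2D, against 30.09 TPM in A549 3D and 47.45 TPM in A549 2D. A high r over these libraries also reflects the gap between the lines, so it need not mean a like change in 3D.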

How the data were processed

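RNA-seq of 12 libraries was used, 3 per group. Total RNA was extracted with TRIZOL and ribosomal RNA removed with a stranded total RNA kit, per the labels' protocols. The deposited files hold RSEM gene results for genome build hg19, per the submitters' processing notes. Not given in the sources used here are the RSEM version, aligner, annotation release and strand setting. Expected counts, estimated by the authors with RSEM, split reads that fit several genes. TPM values and transcript lengths (in bases) were deposited beside them. The transcript lists in the deposited tables hold repeated copies of HLA genes (8 entries for HLA-DMA, 11 for HLA-DRB1), and the lines' own HLA alleles were not used, so the split between HLA paralogues is uncertain.

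Expected counts were rounded to whole numbers, filtered with filterByExpr, scaled with TMM (factors 0.809 to 1.129) and fitted in R 4.3.3 with edgeR 4.0.16 (quasi-likelihood test) as 4 group means over 12 libraries. The contrasts were 3D against 2D within MDA-MB-231 and within A549, the first of these minus the other, and MDA-MB-231 against A549 in each culture. Adjusted p-values are two-sided Benjamini-Hochberg values over 15304 genes, with a threshold of 0.05. Fold changes come from the counts and levels from TPM. Errors on log2 values are SE and on TPM are SD. The SE is the log2 fold change divided by the square root of the F value of the edgeR test. It therefore draws on spread shared over the 4 groups, not on the compared libraries alone. Since the labels do not call the replicates separate cultures, p-values reflect the spread between these libraries alone, which may be technical. Replicate pairs differed by more than sampling noise (chi-square per degree of freedom 2.60 to 150).

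The members and gene lists were chosen with earlier results of these data known. Each list gave up to 4 genes with the smallest p among those called in a comparison, from which the named genes were drawn. Genes set apart after their values were seen are marked as such in the text or follow from counts of 5 or fewer. For likeness, 5 genes by Pearson's r were taken, with small structural RNAs and LOC symbols left out. A few genes that these rules named are not reported here. Columns of other series numbered 0. The floor for a group at 0 was 3 counts over the group, ratios against 1 to 3 counts carry exact 95% intervals, and both cover counting error only. Alternatives were DESeq2 1.42.0, scaling by RLE or upper quartile, other filters, limma 3.58.1 on log2 TPM with 1 or 0.1 added, only the compared groups, a replicate block, summed paralogues and each library left out.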

Additional observations from a re-analysis of the deposited data

Results flagged for a closer look

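The 3D change differed between the lines, by edgeR's test of the difference itself, for the 17 genes given here. The same test called 56.1% of all genes. The 17 come from the class II, class I, interferon-gamma and blood cell lists, up to 4 per list by smallest p, with JAK2 and LOC100294145 added. Genes with 3 counts or fewer in a group were left out. Line markers were left out too, though all 7 A549 markers tested were called lower, CDH1 at -5.09 and EPCAM, KRT8 and AKR1C1 among them. VIM was called higher. Values are the MDA-MB-231 change minus the A549 change on the log2 scale. Among class I genes the difference was 1.35 for TAP1 (1.23 in MDA-MB-231 and -0.12 in A549), 1.22 for PSMB9 (1.49 and 0.27) and 2.39 for HLA-F (3.31 and 0.92). For HLA-DOA it was 4.02 (4.49 and 0.47), but A549 had few counts of this gene. Among processing genes it was -2.14 for CD82 (0.87 and 3.02), -1.23 for LGMN (0.36 and 1.59), 0.86 for AP1M1 (0.76 and -0.10) and 0.75 for MARCH8 (0.87 and 0.12).

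Among regulators the difference was -1.77 for IFNGR1 (-0.48 and 1.28), 1.17 for JAK1 (0.07 and -1.10), -1.59 for JAK2 (-1.60 and -0.01), -1.85 for KAT2B (-1.19 and 0.66) and 1.72 for SMARCA4 (0.77 and -0.95). For the interferon-gamma-induced genes it was -1.34 for GBP2 (0.57 and 1.91) and 0.85 for WARS (0.85 and -0.01). For CD68, a marker of macrophages, it was -1.22 (1.27 and 2.49). For LOC100294145, next to HLA-DMB, it was -3.26 (-0.82 and 2.44). The largest adjusted p among the 17 was 0.00398, for HLA-DOA. On TPM the MDA-MB-231 values of LGMN and JAK1 and the A549 values of PSMB9, MARCH8 and HLA-DOA had the opposite sign, while the differences between the lines kept theirs. What lies behind these differences was not tested.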

How the results depend on the processing

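For 3D against 2D the members called stayed at 10 in MDA-MB-231 and 2 in A549 when each library was left out, and the direction of log2 fold changes of members with more than 3 counts in both groups held in every alternative run. Members called for the difference between lines numbered 5 in edgeR, 9 in DESeq2, and 10 in limma on log2(TPM + 1) and on log2(TPM + 0.1), with 3 to 5 when a library was left out. On TPM the median gene shifted by -0.25 in MDA-MB-231 and -0.38 in A549 with 1 added, and by -0.36 and -0.50 with 0.1 added. With 1 added, 2532 genes were then higher and 7491 lower in MDA-MB-231, against 5118 and 5234 from counts, and 2290 higher and 8626 lower in A549, against 5222 and 4820. Between lines 9560 genes were higher and 3543 lower in MDA-MB-231 in 3D on that scale, against 5993 and 6715, and 9487 and 3181 in 2D, against 5941 and 6544. With 0.1 added these were 2362 and 7333, 2346 and 8636, 9589 and 3589, and 9407 and 3168. Among the genes named with values, signs turned on TPM in MDA-MB-231 for RFX5 (-0.16 with either addition), B2M (-0.13 with either), LGMN (-0.064 with either) and JAK1 (-0.34 with either), and in A549 for RFXANK (-0.16 and -0.17), PSMB9 (-0.34 and -0.38), MARCH8 (-0.43 and -0.48) and B2M (-0.069 with either), and for HLA-DOA, which had 5 counts in each culture. Mean fragment length also differed between 3D and 2D in each line, and the cause of the turned signs was not tested.

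Across all alternatives the log2 fold change in MDA-MB-231 ranged from 3.01 to 3.48 for HLA-DRA, 3.37 to 5.53 for HLA-DRB5, 4.29 to 5.53 for HLA-DQB1 and 1.83 to 2.58 for CIITA, and in A549 from 4.86 to 6.09 for HLA-DMB and 2.91 to 4.16 for HLA-DMA. The difference between lines ranged from -1.86 to -1.08 for HLA-DMA and from -3.24 to -2.55 for HLA-DMB. HLA-DQA1 summed with HLA-DQA2 gave 7.54. With each library left out, all genes called numbered 9552 to 10959 for 3D against 2D in MDA-MB-231, 9319 to 10631 for 3D against 2D in A549, 7937 to 8967 for the difference, 12461 to 13034 for the lines in 3D, 12087 to 13104 for the lines in 2D. Listed genes called numbered 61 to 66 for 3D against 2D in MDA-MB-231, 41 to 47 for 3D against 2D in A549, 37 to 49 for the difference, 61 to 66 for the lines in 3D, 59 to 63 for the lines in 2D.

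Equal replicate numbers did not pair the libraries: the correlation of deviations from the group means was -0.039, 0.061 and -0.14 in MDA-MB-231 and -0.040, 0.092 and 0.056 in A549, and not every library correlated best with its own number. With a replicate block 10077 genes were called in MDA-MB-231 and 9667 in A549, with 10 and 2 members. In A549 8 members had 8 counts or fewer over 6 libraries, so a change in them could not be read at this depth.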
